A study of Homo sapiens with 24 samples.

Results

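The genes described here take up, store and sense iron, and their transcript levels were followed over the Human Cell Cycle dataset, an RNA-seq time series of K562 cells. K562 is an established human cell line from a chronic myeloid leukaemia with erythroid features, that is, features of cells on the way to red blood cells. The cells were grown in RPMI with 10% bovine calf serum and P/S, synchronized by size with centrifugal elutriation, and sampled every 2 h from 0 h to 46 h. There was 1 library per time point, no replicate and no untreated control, so 24 libraries from what the study describes as 1 time course form a single series with time as its only variable. The genes come from a fixed list of 9 symbols, drawn up with earlier results of these data known. They are TFRC, TFR2, STEAP3, FTH1, FTL, NCOA4, ACO1, IREB2 and HMOX1. Of these, 8 were found among the 12285 genes of the expression table, and all 8 passed the filter of a mean of at least 1 FPKM (sequenced fragments scaled to transcript length and library size). HMOX1, which encodes haem oxygenase, was not analysed here.

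Cells take up iron bound to transferrin through the transferrin receptor, encoded by TFRC, and a related receptor of lower affinity, encoded by TFR2, is made in liver and erythroid cells. In the endosome STEAP3 reduces the iron so that it can be moved to the cytosol. Iron that is not used at once is stored in ferritin, a shell built from heavy chains (FTH1), which oxidize iron, and light chains (FTL), which help the mineral core to form. NCOA4 carries ferritin to the lysosome, where the iron is released again. Cells of the erythroid lineage take up much iron because haem synthesis uses it.

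Iron is sensed by the iron regulatory proteins IRP1, encoded by ACO1, and IRP2, encoded by IREB2. With little iron they bind to iron-responsive elements (IREs), small RNA hairpins in untranslated regions (UTRs). Binding in the 5′ UTR of a ferritin transcript blocks its translation, and binding in the 3′ UTR of the TFRC transcript protects it from degradation. IRP1 is also the cytosolic aconitase, and IRP2 is degraded when iron is plentiful. An RNA-seq series reports the transcript levels of these genes and neither the activity of the proteins nor translation.

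The hairpins are shown because they set the regulated members, FTH1, FTL and TFRC, apart from the other 5. The sequences were read from GENCODE 29 transcripts, 5′ to 3′ on the sense strand, and bases are counted from the start of the transcript. The letters searched were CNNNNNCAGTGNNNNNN, in which the 5 bases before and the 5 bases after the loop CAGTGN had to pair, G with T included. The capitals mark the loop, and the leading c is the unpaired base below the stem.
FTH1, 5′ UTR, bases 65 to 81: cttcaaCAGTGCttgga
FTL, 5′ UTR, bases 41 to 57: cttcaaCAGTGTttgga
TFRC, 3′ UTR, bases 3394 to 3410: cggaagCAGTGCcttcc
TFRC, 3′ UTR, bases 3798 to 3814: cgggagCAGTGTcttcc
TFRC, 3′ UTR, bases 3863 to 3879: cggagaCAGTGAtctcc
TFRC, 3′ UTR, bases 3910 to 3926: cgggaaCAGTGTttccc

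The ferritin transcripts each held 1 such match and TFRC held 4, while the UTRs of TFR2, STEAP3, NCOA4, ACO1 and IREB2 held none. Among 10369 protein-coding genes of the table, 118 (1.14%) had a match in a UTR, with letters and pairing both required. A match is a description of the sequence and does not show binding.

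The label of the cells was checked against marker genes. All 14 markers of the erythroid leukaemia list were in the table, with summed levels of 2963 to 8168 FPKM per library. The table held 2 of 7 lymphoid markers (4.81 to 14.1 FPKM), 1 of 6 fibroblast markers (1.70 to 3.94 FPKM) and 1 of 5 macrophage markers (4.14 to 26.1 FPKM). Before the results it has to be said that 2 libraries stand apart. The study named 16 h and 18 h as STRIPEs, time points at which the levels of many genes depart from their neighbours, and 32 h as a mild case. Their summed FPKM, 566247 and 591309, exceeded that of the remaining 22 libraries, which spanned 456791 to 520382. Levels are therefore given over these 22 time points, and 16 h and 18 h are described on their own. The values are not read counts, so the depth behind each value is unknown.

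The storage genes had by far the most transcript. Since FPKM is scaled to transcript length, levels can be set side by side between genes. FTL (ENSG00000087086) had 1342 FPKM at its lowest, a median of 1554 and 1893 at its highest, and its mean over the series ranked 13 among all 12285 genes. FTH1 (ENSG00000167996) had 398, 494 and 730 FPKM and ranked 99. The ferritin genes have many processed copies in the genome, and reads shared with them make both levels uncertain. The copies in the table, FTLP3 and FTLP12, had means of 2.39 and 1.10 FPKM.

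The uptake genes spanned a wide range of levels. TFRC (ENSG00000072274) had 210 FPKM at its lowest (46 h), a median of 264 and 345 at its highest, which was at 0 h, directly after elutriation. TFR2 (ENSG00000106327) had 50.0, 58.7 and 77.3 FPKM, with the highest level at 32 h. The level of TFRC was thus above that of TFR2 at every time point, by 3.21 times at 46 h to 6.38 times at 0 h, with a median ratio of 4.52. STEAP3 (ENSG00000115107) had 12.7, 17.6 and 21.6 FPKM, with its highest level at 8 h and its lowest at 46 h.

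NCOA4 (ENSG00000266412), the ferritin carrier, had 88.1 FPKM at its lowest, a median of 94.8 and 125 at its highest. Among the sensors, IREB2 (ENSG00000136381) had 30.2, 35.2 and 39.1 FPKM and ACO1 (ENSG00000122729) 12.6, 14.3 and 15.4 FPKM. The transcript of IRP2 was therefore the more abundant sensor transcript at every time point, with a ratio to ACO1 of 2.22 to 2.81. From high to low the order was FTL, FTH1, TFRC, NCOA4, TFR2, IREB2, STEAP3 and ACO1. Over the 22 time points the ranges of neighbours in this order did not overlap, except those of STEAP3 and ACO1, where STEAP3 was the higher one at 21 of 22 time points and the lower one at 46 h.

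**Figure D1:**
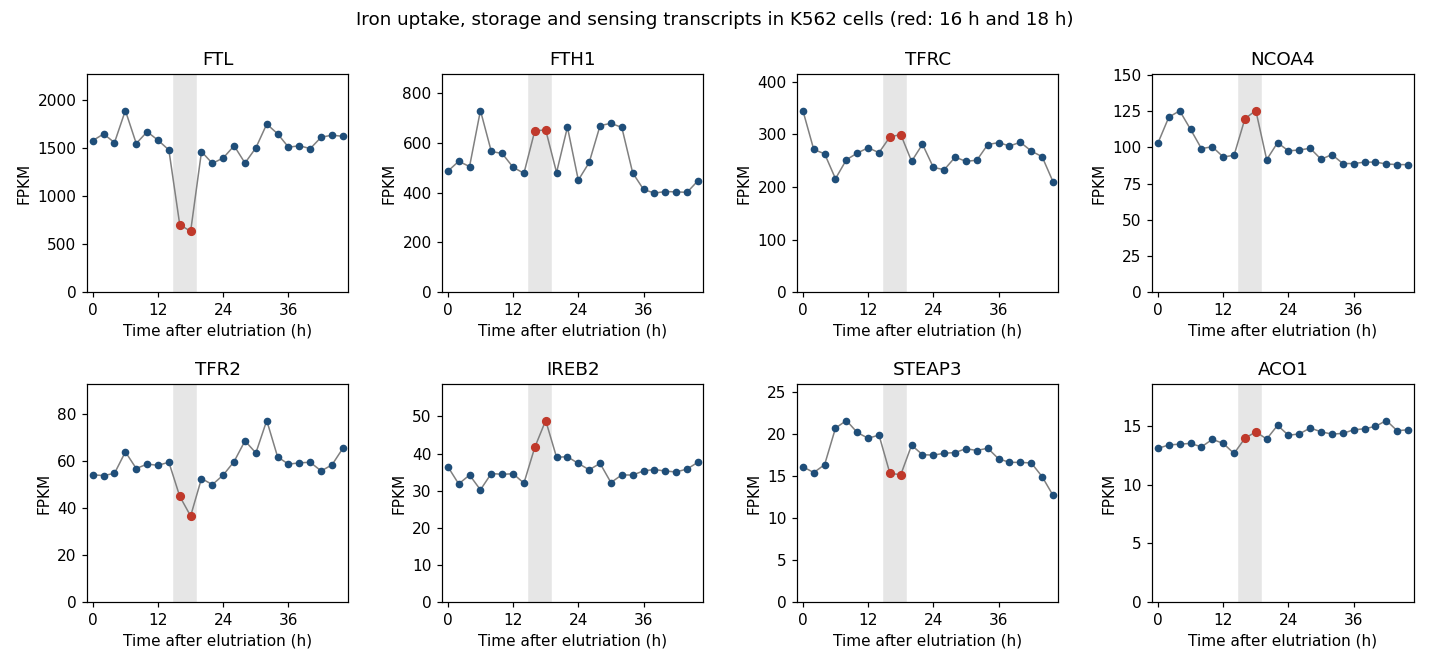
Transcript levels of the 8 iron genes (FPKM, y axis from 0) against hours after elutriation (x axis), 1 point per library, with 16 h and 18 h in red on grey. FTL drops to 704 and 634 FPKM at these time points, FTH1 has separate highs at 6 h, 22 h and 28 h to 32 h, and among the blue points NCOA4 is highest at 4 h and then declines while ACO1 and IREB2 vary least.

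The sensors were also the steadiest. The coefficient of variation over the 22 time points was 5.17% for ACO1 and 6.43% for IREB2, and 1.02% and 3.53% of all genes varied less. For FTL it was 8.11%, for TFR2 10.1%, for TFRC and NCOA4 10.6% and for STEAP3 11.5%. FTH1 was the most variable of the 8, with 19.7% and a highest level 1.83 times its lowest, and 72.5% of all genes varied less. Its mean was 519 ± 102 FPKM (SD, n = 22 time points), against 1561 ± 127 FPKM for FTL.

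To ask how the anomalous pair affected these genes, the mean of 16 h and 18 h was set against the straight line between 14 h and 20 h, on the scale of log2(FPKM + 1). With 1 library per time point there is no test, and the reference is the same measure at 16 other pairs of consecutive time points. FTL was the only one of the 8 that departed by at least 2-fold. Between 1482 FPKM at 14 h and 1464 FPKM at 20 h, it had 704 FPKM at 16 h and 634 FPKM at 18 h, a mean deviation of −1.14, or 0.454 times its flanks. Its reference pairs lay between −0.20 and 0.17, and 5.22% of all genes lay lower. Across all 12253 genes tested, 7.11% were at least 2-fold below their flanks and 8.95% at least 2-fold above. With 1 of 8 below and 0 of 8 above, the count for the iron genes was near this background.

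The other ferritin gene lay on the opposite side. With flanks of 477.5 and 480.6 FPKM, FTH1 had 648 FPKM at 16 h and 652 FPKM at 18 h, a deviation of 0.44 against −0.46 to 0.28 in its reference pairs. The deviation depended on the setting. It was 0.17 from flanks at 12 h and 22 h, where FTH1 itself was high at 22 h. After upper-quartile scaling it was 0.21. Both values lay inside the range just given, which was not recomputed under either setting. Levels of this size also occurred at 6 h, 22 h and 28 h to 32 h, so FTH1 at 16 h and 18 h stayed within the range of its other time points, while FTL was far below its own.

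Of the uptake genes, TFR2 had 59.5, 45.0, 36.6 and 52.6 FPKM at 14 h, 16 h, 18 h and 20 h, and its 2 anomalous values were lower than any of the other 22. Its deviation was −0.45. STEAP3 deviated by −0.32, with 15.3 and 15.1 FPKM, and TFRC by 0.21, with 295 and 300 FPKM. For NCOA4 the deviation was 0.39, with 119.8 and 125.5 FPKM. Its highest other levels were 120.9 FPKM at 2 h and 125.3 FPKM at 4 h, so the value at 18 h was slightly above them. The sensors were both above their flanks. IREB2 had 41.7 and 48.9 FPKM, above all of its other time points, and deviated by 0.34, and ACO1 had 13.9 and 14.5 FPKM and deviated by 0.09.

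All 8 deviations lay outside the range of their own 16 reference pairs, as did those of 71.6% of all genes. The median deviation was 0.15 over the 8 genes and 0.14 over all genes. The scaling moves these values together, since the median of all genes was 0.03 with median centring of the libraries and −0.06 with upper-quartile scaling. Relative to the median of all genes the deviations were −1.28 for FTL, −0.59 for TFR2, −0.46 for STEAP3, −0.04 for ACO1, 0.07 for TFRC, 0.21 for IREB2, 0.26 for NCOA4 and 0.30 for FTH1. The small deviations of ACO1 and TFRC have no stable sign. That of ACO1 was −0.02 after median centring and −0.12 after upper-quartile scaling, and that of TFRC was −0.02 after upper-quartile scaling. Under that scaling NCOA4 was at 0.16 and IREB2 at 0.12, and TFR2 at −0.68 and STEAP3 at −0.54.

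**Figure D2:**
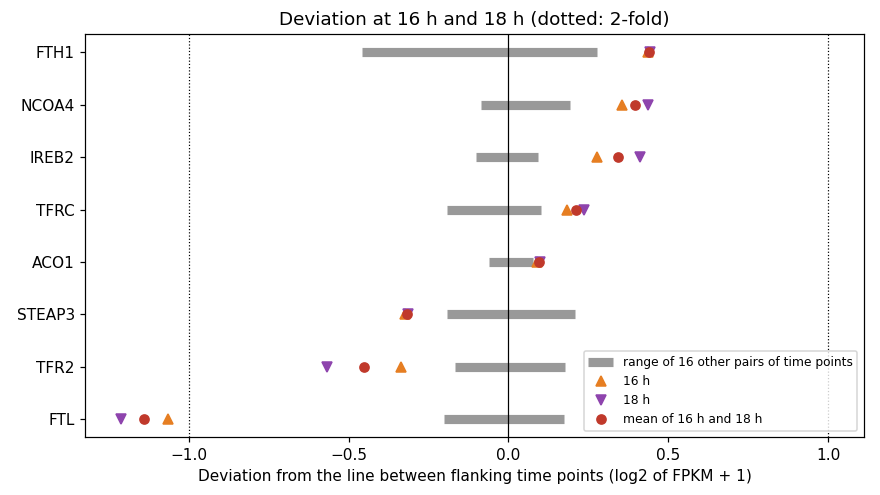
Deviation of 16 h (upward triangles), 18 h (downward triangles) and their mean (circles) from the line between 14 h and 20 h, in log2 of FPKM + 1 (x axis), for each iron gene (y axis), beside the range of the 16 reference pairs (grey bars). FTL at −1.14 is the only mean past the dotted 2-fold line, and the mean of every gene lies outside its grey bar.

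The deviations of all genes moved with the GC content of the transcript, the share of its bases that are G or C. In 5 equal bins of genes from low to high GC content, the median deviation was 0.54, 0.39, 0.18, −0.16 and −0.53. Among the iron genes, IREB2 (38.3% GC), TFRC (41.5%), NCOA4 (43.1%), ACO1 (45.7%) and FTH1 (50.1%) were above their flanks, and FTL (56.3%), STEAP3 (56.9%) and TFR2 (62.0%) below. Once the smooth GC trend over all genes was subtracted, STEAP3 was at −0.03, NCOA4 at 0.02 and TFR2 at 0.10. IREB2 (−0.20), TFRC (−0.23) and ACO1 (−0.18) then lay below 0. The ferritin genes kept most of their deviation, with −0.88 for FTL, which 5.58% of genes undercut, and 0.37 for FTH1, and no iron gene reached 2-fold.

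**Figure D3:**
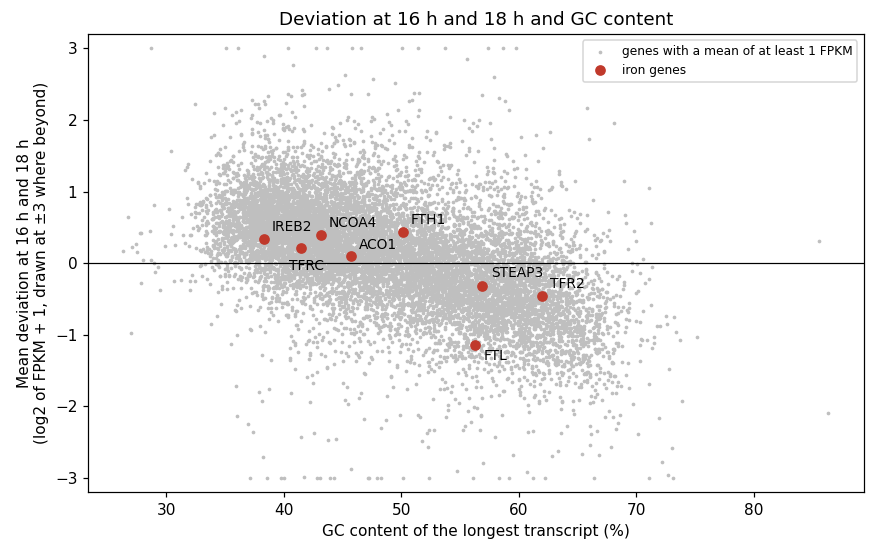
Mean deviation at 16 h and 18 h (log2 of FPKM + 1, y axis, values beyond ±3 drawn at ±3) against the GC content of the longest transcript (%, x axis) for all genes that passed the filter (grey) and the iron genes (red). The cloud falls from left to right, and FTL at −1.14 lies below the median of −0.16 of genes in its GC bin.

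The deposited table also has a cleaned version, in which the levels had been turned into Z-scores and quantile normalized. These scores are relative to each gene's own series. FTL still had its lowest scores at 16 h (−1.85) and 18 h (−1.71), and −0.81 to 1.13 elsewhere. TFR2 was lowest at 18 h, with −1.30, and IREB2 had its second highest score there, with 1.35. The scores of TFRC, STEAP3, FTH1, NCOA4 and ACO1 at 16 h and 18 h lay inside the range of their other time points.

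The ratio of the ferritin transcripts shows these differences in 1 number, since it does not depend on how a library is scaled. Over the 22 time points there were 2.01 to 4.08 FTL for each FTH1 transcript, in FPKM, with a median of 3.11. From 14 h to 20 h the ratio was 3.10, 1.09, 0.972 and 3.05, so that at 18 h the heavy chain transcript was the higher one. Outside this pair the ratio was lowest at 28 h (2.01), 22 h (2.02) and 30 h (2.22), when FTH1 was high. From 34 h on it was higher than at any earlier time point, at 3.44 to 4.08.

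From 2 h to 12 h and from 22 h to 44 h, the largest departure from neighbouring time points was 0.51 for FTH1 and 0.28 for FTL. At 22 h it had 663 FPKM, against 480.6 at 20 h and 450.1 at 24 h, a deviation of 0.51 from the mean of its neighbours, and 98.1% of genes deviated less far upwards at that time point. At 6 h it deviated by 0.45, with 729.6 FPKM. FTL deviated by 0.28 at 6 h and by −0.09 at 22 h. The ferritin genes were thus both above their neighbours at 6 h, and only FTH1 was above them at 22 h. The summed FPKM of the libraries at 6 h, 22 h, 28 h, 30 h and 32 h, where FTH1 was highest, was 500802 to 520382, and at the other 17 time points it was 456791 to 501447. Its part in the highs of FTH1 was not tested.

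**Figure D4:**
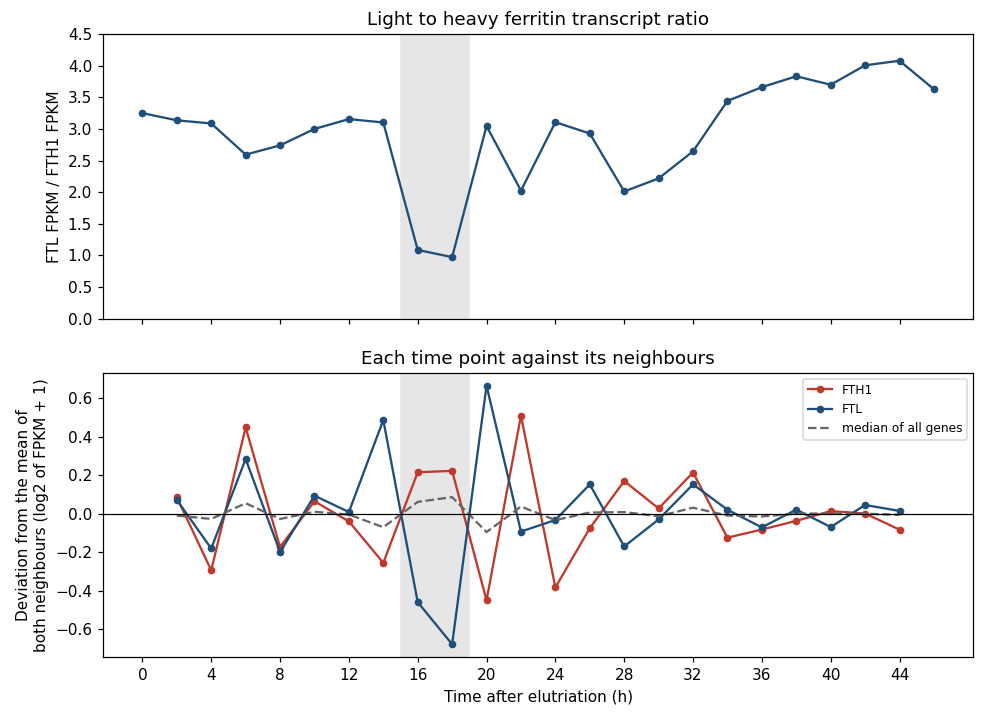
Upper panel, ratio of FTL to FTH1 transcript levels (FPKM over FPKM, y axis from 0) against hours after elutriation (x axis), and lower panel, deviation of each time point from the mean of both neighbours (log2 of FPKM + 1) for FTH1, FTL and the median of all genes, with 16 h and 18 h on grey, which also enter the deviations at 14 h and 20 h. The ratio falls to 1.09 and 0.972 on grey and to 2.02 at 22 h, and FTH1 has its largest upward deviation, 0.51, at 22 h.

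To ask which genes followed an ordered course over an assumed cycle of 24 h, the study's length of 12 time points, genes were ranked by the JTK statistic without 16 h and 18 h. This statistic compares the order of the levels with that of a cosine, and the p comes from 100000 random orderings of the time points and is Benjamini–Hochberg adjusted over all 12285 genes. It treats time points as exchangeable, so that slow drift in 1 culture also lowers it. Of the 8 iron genes 4 passed an adjusted permutation p of 0.05, against 16.2% of all genes. The cyclin genes CCNE2, an S phase entry gene that was highest at 2 h, and CCNB1, a mitotic gene that was highest at 22 h, had adjusted permutation p-values of 0.00629 and 0.124.

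FTH1 had the lowest adjusted permutation p of the iron genes, 0.00406, with a best-matching peak at 6 h. Its highs at 6 h and at 28 h to 32 h lie about 1 assumed cycle apart, while the high at 22 h falls between them. STEAP3 (0.0434) had its best-matching peak at 10 h, with 19.5 to 21.6 FPKM from 6 h to 14 h against 15.4 to 16.3 FPKM from 0 h to 4 h. On the second day its levels stayed at 17.5 to 18.3 FPKM from 24 h to 34 h and showed no separate high of that size. NCOA4 (0.0488) peaked at 4 h with 125 FPKM, and had no comparable high 24 h later, at 28 h, with 99.4 FPKM. IREB2 (0.0488) had its best-matching peak at 22 h. It was highest at 20 h and 22 h, with 39.0 and 39.1 FPKM, and reached 37.7 FPKM at 46 h.

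The other members did not pass, with adjusted permutation p-values of 0.196 for TFR2, 0.233 for TFRC, 0.394 for ACO1 and 0.445 for FTL. A repeat with 1000000 orderings, chosen after seeing the data, called the same number of members, with 0.0066 for FTH1 and 0.0480 for NCOA4 and IREB2. The calls other than that of FTH1 lie close to the threshold. Without 6 h and 32 h, FTH1 alone of the 8 passed. Without 6 h, 22 h, 28 h, 30 h and 32 h it passed as well, with an adjusted permutation p of 0.0333, and the other 7 did not. With a period of 20 h FTH1 had 0.143 and TFRC, at 0.0459, was the only member to pass, and with 28 h none passed.

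The second day was then compared with the first, at 10 pairs of time points 24 h apart, leaving out the pairs that contain 16 h and 18 h. The comparison used limma on log2(FPKM + 1) with the hour as a block. Day, age of the culture and loss of synchrony cannot be told apart, and time points stand in for replicates. NCOA4 was the only one of the 8 iron genes to pass a limma adjusted p of 0.05. It fell from 104 ± 11.6 FPKM to 92.6 ± 4.54 FPKM (SD, n = 10 time points), a log2 difference of −0.17 with an SE of 0.0435 and a limma adjusted p of 0.0192, and it was lower in 10 of 10 pairs. Of all genes 7.04% were lower and 12.6% higher on the second day.

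The course of NCOA4 was not a step between days. It had 121 and 125 FPKM at 2 h and 4 h, 93.4 FPKM by 12 h and 88.1 to 89.9 FPKM from 34 h on. Kendall's tau with time over the 22 time points was −0.70, with an adjusted p of 2.69e-05. Such trends were common, as 2015 genes passed as falling and 2240 as rising by Kendall's tau. The largest pair differences of NCOA4 were −0.33 (4 h and 28 h), −0.30 (2 h and 26 h) and −0.29 (6 h and 30 h). With any 1 pair left out NCOA4 was still the only member called.

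ACO1 moved the other way by a small amount. It had 13.6 ± 0.634 FPKM on the first day and 14.5 ± 0.213 FPKM on the second (SD, n = 10 time points), a log2 difference of 0.09 (SE 0.0394, limma adjusted p 0.113), and was higher in 9 of 10 pairs, all but 22 h and 46 h. By day it did not pass the test. As a trend over 22 time points it did, with a Kendall's tau of 0.66 and an adjusted p of 8.16e-05. In all, 2240 genes passed as rising by this measure. IREB2, the other sensor, had a difference of 0.04 (95% interval −0.05 to 0.13) and a tau of 0.24 (adjusted p 0.229).

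The uptake genes had no call by day. TFR2 had 56.3 ± 4.01 and 62.7 ± 6.54 FPKM and was higher in 7 of 10 pairs (log2 difference 0.15, limma adjusted p 0.0731). With the 2 pairs of the anomalous time points put back it passed, at a limma adjusted p of 0.0450, and its lowest values are at 16 h and 18 h. TFRC was higher in 5 of 10 pairs and lower in 5, with the largest difference at 0 h and 24 h (345 and 237 FPKM), and its interval was −0.23 to 0.08. STEAP3 was lower in 7 of 10 pairs, with an interval of −0.27 to 0.01. At 0 h, 2 h and 4 h it was lower than 24 h later, and from 6 h on it was higher.

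Neither ferritin gene passed by day. FTL had 1577 ± 146 and 1547 ± 122 FPKM (interval of the log2 difference −0.16 to 0.11). FTH1 had 549 ± 84.6 and 512 ± 115 FPKM (interval −0.29 to 0.05) and was lower in 8 of 10 pairs, with the exceptions of 4 h against 28 h and 8 h against 32 h. From 34 h on FTH1 stayed at 398 to 479 FPKM. The median log2 difference was −0.05 over the 8 genes and 0.01 over all genes.

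**Figure D5:**
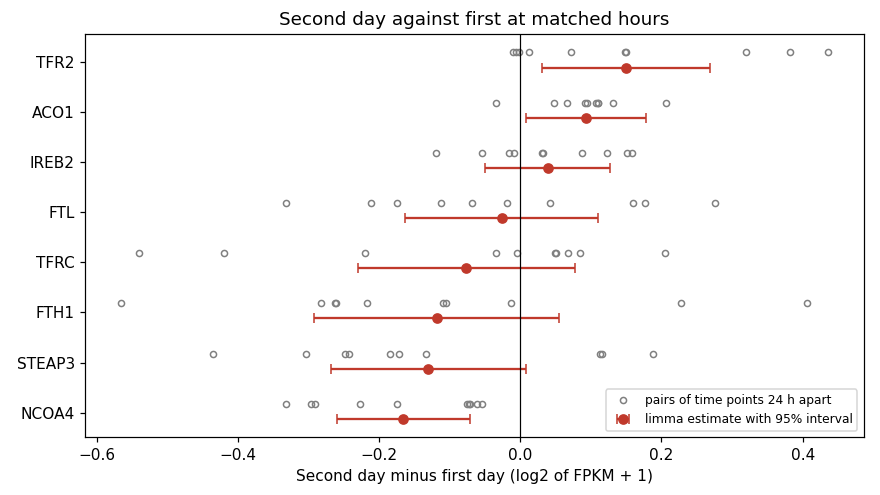
Difference between the second and the first day, in log2 of FPKM + 1 (x axis), for each iron gene (y axis), with each of the 10 pairs of time points 24 h apart as an open circle and the limma estimate with its 95% interval in red. All 10 circles of NCOA4 lie left of 0, and 9 of 10 of ACO1 lie right of 0.

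The iron genes did not move as 1 group. Over the 22 time points, described across libraries of 1 series that share drift and scaling, FTL and FTH1 had a Pearson r of 0.09 and a Spearman rho of 0.06, and FTL ranked 4138 among 7168 genes by likeness to FTH1. The receptors TFRC and TFR2 had an r of −0.38 (rho −0.36). The sensors ACO1 and IREB2 were more alike, with an r of 0.45 (rho 0.48). IREB2 ranked 1126 by likeness to ACO1, and ACO1 566 by likeness to IREB2. FTL and IREB2 were most opposed, with an r of −0.62 (rho −0.53). FTH1 and NCOA4, cargo and carrier, had an r of 0.46 and a rho of 0.72, and NCOA4 ranked 1751 by likeness to FTH1. The highest r of any pair of members was that of FTH1 and STEAP3, 0.48 (rho 0.53).

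Among all 7168 genes compared, each with a mean of 10 FPKM or more, those most like each member were other genes. Most like FTH1 were SERF2 (r 0.95, rho 0.89), CCDC12 (0.94, 0.90) and HNRNPM (0.94, 0.93). FTL was most like ZCRB1 (0.89, 0.82), TRAPPC8 (0.88, 0.83) and EIF3L (0.87, 0.88). These did not share its fall at 16 h and 18 h, where ZCRB1 deviated by 1.32, TRAPPC8 by 1.41 and EIF3L by 0.55. Their GC content was also lower, at 35.1%, 40.8% and 49.6% against 56.3% for FTL. STEAP3 was most like NOL6 (0.97, 0.93), CCDC86 (0.94, 0.91) and FAM136A (0.93, 0.92), and TFR2 like NFE2 (0.86, 0.83), an erythroid transcription factor of the marker list, DAP3 (0.85, 0.79) and TNNT1 (0.85, 0.82).

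For NCOA4 the most alike genes included LAMTOR3 (0.92, 0.89) and USP22 (0.91, 0.88). ACO1 was most like TPMT (0.89, 0.85), FERMT3 (0.89, 0.83) and IL23R (0.86, 0.82), and IREB2 like TRNT1 (0.83, 0.86), SELENOI (0.81, 0.78) and ZNF197 (0.80, 0.81). The closest matches of TFRC were weaker, with RLF (0.77, 0.65), POLR1F (0.77, 0.68) and HSP90B1 (0.75, 0.67), and every other member had a closest match of higher r.

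The other genes of iron handling were taken from 6 lists, of which 90 of 104 genes were in the table. At 16 h and 18 h, 6 (6.67%) were at least 2-fold above and 4 (4.44%) at least 2-fold below their flanks. The 24 h JTK called 14 (15.6%), and on the second day 10 (11.1%) were higher and 13 (14.4%) lower. Against the shares of all genes given above, the share lower on the second day was the only one of the 5 above its background. The lists were chosen with earlier results of these data known. That background also depends on the scaling, with 862 genes lower as reported here and 1299 after median centring of the libraries.

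Of the 7 other transcripts with known or proposed IREs, 1 deviated by 2-fold, CDC42BPA, a kinase, with 46.3 and 54.5 FPKM at 16 h and 18 h against 21.6 and 21.8 FPKM at the flanks (1.17). Among those called by JTK was SLC40A1, the iron exporter ferroportin (adjusted permutation p 0.0434). ALAS2, which makes the first intermediate of haem in erythroid cells, fell on the second day, from 73.2 ± 8.98 to 49.5 ± 8.39 FPKM (log2 difference −0.56, limma adjusted p 0.000147). CDC42BPA rose by 0.20. The search for the letters given above found UTR matches in ALAS2, SLC40A1 and CDC14A, among others. Those of the haem and the export transcript are shown, since both genes passed a test:
ALAS2, 5′ UTR, bases 102 to 118: cgtcctCAGTGCagggc
SLC40A1, 5′ UTR, bases 205 to 221: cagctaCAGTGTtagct

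Among 16 genes of iron import and trafficking, SNX3 (1.12) and EXOC6 (1.04), both of which serve the recycling of the transferrin receptor, were above their flanks at 16 h and 18 h, where TFRC itself deviated by 0.21. JTK called SLC46A1, SLC39A14 and EXOC6. On the second day 2 rose, CYBRD1, a ferric reductase (0.36), and MELTF (0.34), and 3 fell, among them MON1A (−0.31). Of 10 genes of export, chaperones and systemic control, BLVRB was 2-fold below its flanks (−1.20). JTK called 3, HEPH, PCBP1 and SLC40A1. PCBP2, which like PCBP1 hands iron to ferritin, fell on the second day (−0.24), and HJV (0.32) and BLVRA (0.20) rose. HJV was close to the filter of 1 FPKM, with means of 1.38 FPKM on the first day and 1.97 FPKM on the second.

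Of 20 genes that serve the turnover of the IRPs or the release of iron from ferritin by autophagy, the route of NCOA4, GABARAP (1.25) and TAX1BP1 (1.25) were above and CIAO2B (−1.09) below their flanks. JTK called GABARAPL2, MMS19 and ULK1. On the second day GABARAPL1 (0.48) and TAX1BP1 (0.21), an autophagy receptor that NCOA4 works with, rose, and SQSTM1 (−0.23) fell. NCOA4 thus fell while TAX1BP1 rose, each by a limma adjusted p below 0.05.

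Of 22 iron–sulfur cluster assembly genes, whose product cluster switches IRP1 between its forms, HSPA9 (1.34) was above and NUBP2 (−1.63) and FDX2 (−1.35) below their flanks. JTK called 1, CIAO3. On the second day 4 fell, among them NUBP1 (−0.26) and ABCB10 (−0.25), and FDXR rose (0.22). Of 17 genes of the BACH1 and NRF2 axis, which controls transcription of the ferritin genes, none deviated by 2-fold. The largest deviation in this list, −0.99, was just short of that threshold. JTK called KEAP1, MAFG and ME1. On the second day 3 fell, among them GCLM (−0.40) and SRXN1 (−0.33), and 2 rose, among them ABCC1 (0.31), while FTH1 and FTL did not pass that test. The median difference over this list was 0.01, as over all genes.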

How the data were processed

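RNA-seq of 24 K562 libraries, 1 per time point from 0 h to 46 h, was analysed, each assigned to its hour by its label. The authors made the FPKM values with STAR for alignment and Cufflinks2, with Cuffnorm also named, for quantification and normalization. GRCh37 is named in the submitters' processing notes, and exact tool versions, annotation and strandedness are not given in the sources used here. Genes had been filtered before deposition to at least 1 FPKM in at least 12 time points. The deposited cleaned table holds a score, the Z-score of each gene followed by quantile normalization. Depth is unknown, so counting error cannot be given.

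Analyses used log2(FPKM + 1), which understates changes of low genes, Python 3.11.15 with scipy 1.17.1, and limma 3.58.1 with a mean–variance trend (R 4.3.3). Tests ran over all 12285 genes (JTK) or the 12253 with a mean of at least 1 FPKM (deviations, days), called at a Benjamini–Hochberg adjusted p of 0.05 or a 2-fold deviation. Scripts were tested on simulated data. P-values treat the time points of 1 culture as independent. GENCODE 29 (GRCh38) gave transcript sequence, length and GC content (99.1% of genes) and no coordinates, as the builds differ.

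The members and gene lists were chosen with earlier results of these data known. Named are all members, the 3 genes most like each (mean of at least 10 FPKM), listed iron genes past a call (at most 3 per list and call) and the cyclin references CCNE2 and CCNB1. Of the genes this rule gives, 2 are not reported here. Alternatives were other pseudocounts, filters, scalings, flanks, periods, sets of time points, GC removal and single pairs left out.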

Additional observations from a re-analysis of the deposited data

How the results depend on the processing

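Of the counts of called genes and members, 76 values under an alternative stayed within 1.5 times of those reported and 29 did not. Of the values of single members, 244 kept their direction and side of the threshold or, for deviations, moved by less than 1 SD of the reference pairs. In the tests 21 lost a call, 5 gained one and 3 turned direction. Of the 80 deviations at 16 h and 18 h, which have no test, 31 moved by more than that SD. Among these, 8 changed sign (4 for ACO1, 2 for TFRC and 1 each for TFR2 and IREB2), and that of FTL lost its 2-fold call with the GC trend removed. The cause was not tested unless the setting itself gives it.

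For 16 h and 18 h, the genes below their flanks numbered 1308 with a pseudocount of 0.1. They numbered 549 at a mean of at least 10 FPKM, where only 7169 genes were tested instead of 12253. Upper-quartile scaling gave 580 above and 1298 below, and median centring 802 and 1126, so both turn the balance of higher and lower genes. With the GC trend removed, 0 members, 646 genes above and 495 below were called, and a threshold of 1.5-fold gave 2933 and 2060.

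The 24 h JTK called 2 members after PCHIP interpolation, 2 with the Z-score quantile normalized values, 2 after median centring, 1 with a period of 20 h, 0 with 28 h, 1 without 6 h and 32 h, and 1 without 6 h, 22 h, 28 h, 30 h and 32 h, a setting added after seeing the data. In the last 4 settings 83, 298, 1062 and 1248 genes passed. Genes passing numbered 2093 after PCHIP interpolation, 1425 with the quantile normalized values and 1714 after median centring. With all 24 time points 3 members (STEAP3, FTH1 and IREB2) and 1460 genes passed, and NCOA4 had an adjusted permutation p of 0.370. FTH1 and IREB2 were the members called after PCHIP, quantile normalization and median centring.

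By day, 2 members passed with all 12 pairs (NCOA4 and TFR2), 2 with the Z-score quantile normalized values (NCOA4 and ACO1) and 3 with Kendall's tau (NCOA4, ACO1 and FTH1, the latter at −0.39). With all 12 pairs the differences of FTL and IREB2 turned to 0.18 and −0.026, and with 1 pair left out that of FTL was −0.060 to 0.0076, the latter without 6 h and 30 h, all without a call. Genes higher on the second day were 728 of the 7169 with a mean of at least 10 FPKM. Genes lower were 1299 after median centring (1248 higher) and 1396 with the Z-score quantile normalized values (1463 higher). Kendall's tau called 2015 genes lower and 2240 higher, so a call by it was common among all genes. All 12 pairs gave 1157 genes higher and 631 lower. Leaving out 1 pair of hours gave 1047 to 1833 genes higher and 471 to 1049 lower, and 1 member throughout. No library has a replicate, so no value can be set against technical error.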
